A study of Mus musculus with 8 samples.

Results

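The 9 genes described here are members of the interleukin-1 (IL-1) family and its receptors: Il33, Il1a, Il18, Il1b, Il1rn, Il1r1, Il1rap, Il1rl1 and Il1r2. They were taken by symbol from the deposited table of 26202 genes, and all 9 were present. RNA sequencing of polyadenylated RNA covered primary cells of dissected mouse skin epidermis from pups at postnatal day 0 to 1, plated for 24 hours and then transduced with an adenovirus. The 4 groups were Dlx3 knockout (KO) cells given AdDlx3, the virus carrying the homeodomain transcription factor Dlx3; wild-type (WT) cells given AdDlx3; KO cells given AdGFP, the control virus carrying green fluorescent protein; and WT cells given AdGFP. Every group therefore received a virus, and each group held 2 libraries, 1 in each of the batches that the deposited sample sheet calls A and B. Whether the 2 libraries of a group derive from different pups, litters or dishes is not stated in the labels, and p-values therefore measure only the spread between these libraries, which may be technical. The sources used here do not state which part of Dlx3 the knockout lacks.

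IL-1 family cytokines are alarm signals of barrier tissue. Keratinocytes hold IL-1α and IL-33 inside the cell and release them on damage, whereas IL-1β and IL-18 are made as inactive precursors that proteases cut. IL-1α and IL-1β bind the receptor Il1r1, which then recruits the shared subunit Il1rap, and this step is held back by the soluble antagonist Il1rn and by the decoy receptor Il1r2. IL-33 acts through its own receptor Il1rl1, also called ST2, with the same shared subunit.

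The libraries held between 73688944 and 124857742 alignments. Dlx3 was at 402 and 539 RPKM (reads scaled to gene length and library size) in KO AdDlx3 cells, 237 and 782 RPKM in WT AdDlx3 cells, 0.656 and 0.558 RPKM in KO AdGFP cells, and 1.71 and 1.77 RPKM in WT AdGFP cells; the batch A library is given first here and throughout. The KO AdGFP libraries thus still held Dlx3 reads. All 10 keratinocyte markers were detected, and their summed RPKM was 6997 and 1163 in KO AdDlx3 cells, 8617 and 894 in WT AdDlx3 cells, 15663 and 11301 in KO AdGFP cells, and 17373 and 14406 in WT AdGFP cells. The 2 AdDlx3 libraries of batch B therefore stand apart from the rest, and their part in the results was not tested. Values of the 9 genes other than Il1b and Il1rl1 are given by batch. So are changes of the genes that passed in the lists below. Krt5 and Krt14, the keratins of basal cells, made up most of that sum. The other 8 markers summed to 1091 and 515 RPKM in KO AdDlx3 cells, 1061 and 430 RPKM in WT AdDlx3 cells, 1405 and 1003 RPKM in KO AdGFP cells, and 1064 and 923 RPKM in WT AdGFP cells. Without Krt5 and Krt14 the viruses thus overlapped across batches. Each AdDlx3 library was still below its AdGFP partner of the same genotype and batch, by little in WT cells of batch A.

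The promoters of the 3 genes that passed the test for AdDlx3 are printed here because Dlx3 is a DNA-binding factor of the homeodomain class, which binds short AT-rich cores. Each sequence is the RefSeq GRCm38.p6 window of 300 bases, from 250 before to 50 after an annotated start, read along the gene's strand. Capitals mark matches, on either strand, to 4 motifs. TAATT was searched as a homeodomain core. For the factor AP-1 the letters were TGANTCA. For NF-kB they were GGANTTTCC. The last motif was TATAAA, the TATA box. Il33 has 2 annotated starts, at chr19:29924863-29925162 and chr19:29945540-29945839, both on the plus strand. Il1a has 1, at chr2:129309923-129310222 on the minus strand, and Il1r2 has 1, at chr1:40085843-40086142 on the plus strand.
Il33 start 1: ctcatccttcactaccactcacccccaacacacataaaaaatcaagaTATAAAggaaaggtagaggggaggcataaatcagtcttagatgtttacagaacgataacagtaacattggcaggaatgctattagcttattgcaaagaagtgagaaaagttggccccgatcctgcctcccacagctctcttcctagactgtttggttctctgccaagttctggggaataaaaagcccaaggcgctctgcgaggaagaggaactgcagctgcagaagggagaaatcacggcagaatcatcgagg
Il33 start 2: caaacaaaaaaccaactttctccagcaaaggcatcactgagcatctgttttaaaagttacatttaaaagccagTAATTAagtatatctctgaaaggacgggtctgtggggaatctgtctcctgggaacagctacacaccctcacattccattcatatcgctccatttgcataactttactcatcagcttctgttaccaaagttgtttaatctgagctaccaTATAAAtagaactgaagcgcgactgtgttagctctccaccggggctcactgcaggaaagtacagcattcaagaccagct
Il1a: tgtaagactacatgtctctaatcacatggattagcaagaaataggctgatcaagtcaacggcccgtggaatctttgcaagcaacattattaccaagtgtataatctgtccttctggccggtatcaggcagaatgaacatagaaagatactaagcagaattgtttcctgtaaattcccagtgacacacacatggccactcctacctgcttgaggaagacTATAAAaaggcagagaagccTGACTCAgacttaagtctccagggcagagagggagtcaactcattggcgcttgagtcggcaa
Il1r2: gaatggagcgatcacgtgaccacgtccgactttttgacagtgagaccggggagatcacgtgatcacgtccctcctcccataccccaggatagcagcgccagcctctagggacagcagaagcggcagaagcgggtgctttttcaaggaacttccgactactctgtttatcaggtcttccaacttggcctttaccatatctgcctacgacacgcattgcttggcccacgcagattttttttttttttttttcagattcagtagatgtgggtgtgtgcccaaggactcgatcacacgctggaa

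The second Il33 start carried the run TAATTA, which is 1 palindromic stretch and gives 2 overlapping TAATT matches, 1 on each strand, together with a TATAAA. The first Il33 start carried only a TATAAA. Il1a carried a TATAAA and a TGANTCA close to its start, and Il1r2 carried none of the 4 motifs. Over all 9 genes there were 14 annotated promoters, of which 6 held TAATT, 2 held TGANTCA, 6 held TATAAA and 1, an Il1rl1 start, held GGANTTTCC. Among all 32851 mouse promoters of the same length, 27.0% held TAATT, 7.81% held TGANTCA, 13.6% held TATAAA and 1.25% held GGANTTTCC. TAATT and TATAAA can share bases, windows of the same gene can overlap, and a match is a description of letters, not of a binding site.

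Il33 and Il1a, the 2 alarmins of the family that keratinocytes hold ready-made, fell with AdDlx3. Il33 moved most of the 6 tested genes: its RPKM was between 9.15 and 40.7 times lower with AdDlx3 than with AdGFP in the 4 pairs of the same genotype and batch. Il1a was between 1.70 and 4.80 times lower. In bulk RNA, fewer cells of a type and less RNA per cell cannot be told apart. Of the 9 genes, 6 passed the filter on low values (at least 1 RPKM in at least 2 libraries) and were tested with limma on log2(RPKM + 0.5), a scale that understates the change of low genes, and a gene passed where its p, adjusted by the Benjamini-Hochberg method over the 12090 genes in the test, was under 0.05. Over both genotypes 3 passed, all lower with AdDlx3: Il33, Il1a and the decoy receptor Il1r2, which entered the test only through the 2 KO AdGFP libraries in which it was highest and whose call was lost in 6 of the 8 fits that left out 1 library. Among all genes tested, 5.74% passed in that direction, 23.4% in the other and 29.2% in either. After median-of-ratios scaling of the libraries, 4 of the 6 passed as lower, with Il1r1 added, beside 12.1% of all genes that passed as lower and 9.67% as higher.

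**Figure D1:**
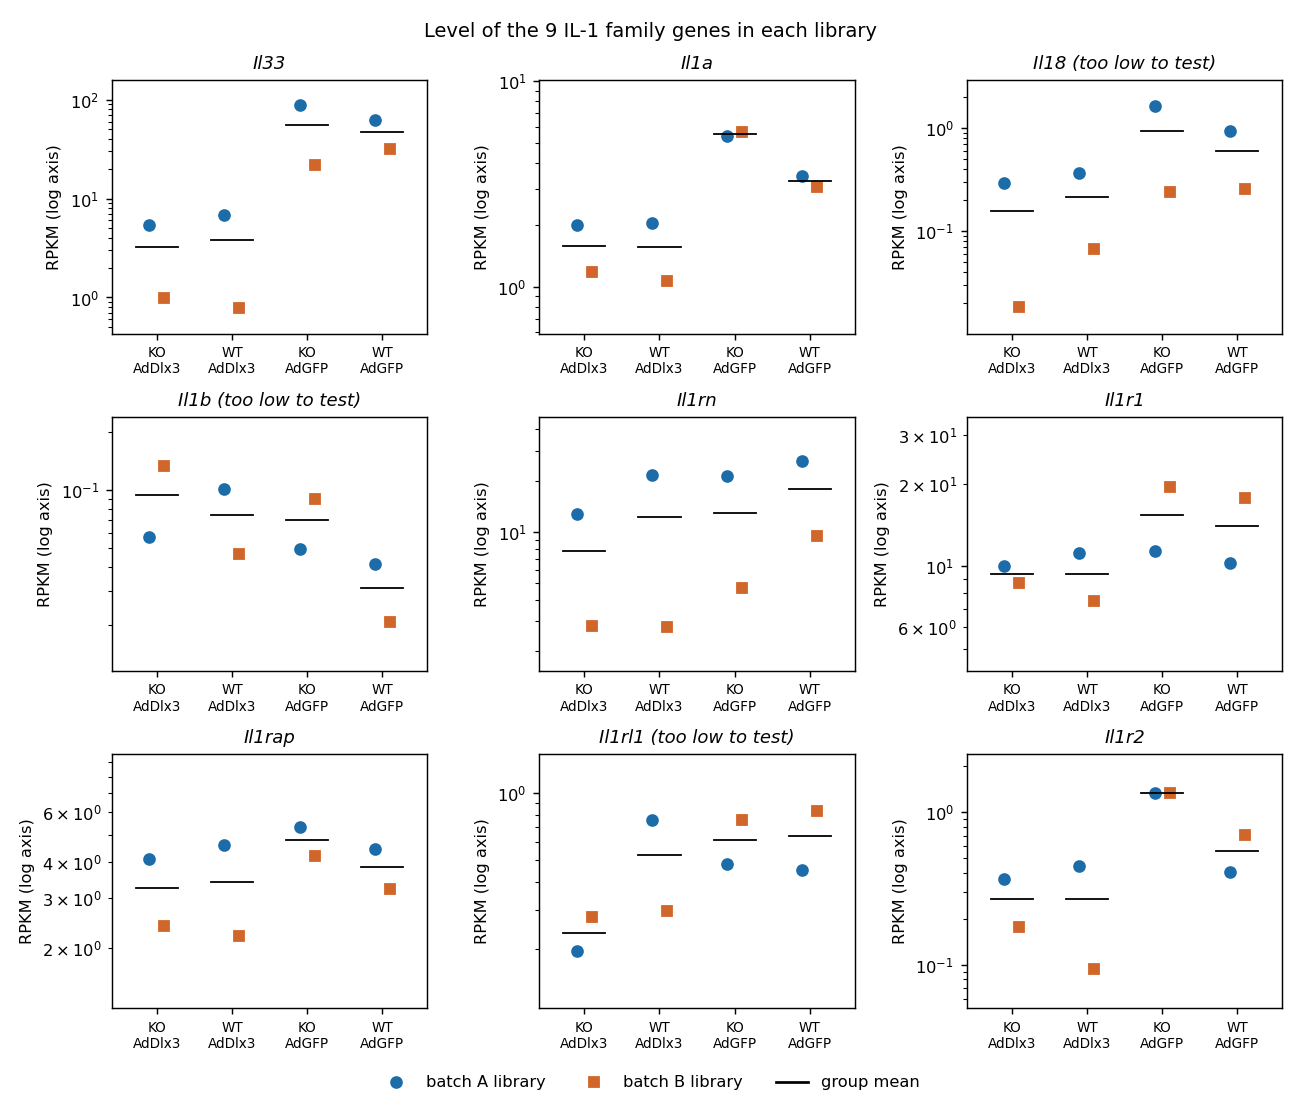
RPKM of each of the 9 genes on a log axis, 1 panel a gene, with the groups along the bottom, a circle for the batch A library, a square for the batch B library and a line for the group mean. Il33 lies between 0.777 and 6.88 RPKM in the 4 AdDlx3 libraries and between 21.8 and 88.3 RPKM in the 4 AdGFP libraries, whereas Il1rn differs more between batches than between viruses.

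Il33 (plus strand of chromosome 19, chr19:29925114-29960718 in GRCm38, with no overlapping annotated gene) had 5.46 and 0.996 RPKM in KO AdDlx3 cells, 6.88 and 0.777 RPKM in WT AdDlx3 cells, 88.3 and 21.8 RPKM in KO AdGFP cells, and 62.9 and 31.6 RPKM in WT AdGFP cells. The AdDlx3 libraries did not overlap the AdGFP libraries, and within each group the batch A library was the higher. The means were 3.23 ± 3.16 RPKM in KO AdDlx3 cells, 3.83 ± 4.32 in WT AdDlx3 cells, 55.0 ± 47.0 in KO AdGFP cells and 47.3 ± 22.1 in WT AdGFP cells (SD, n = 2 each). KO and WT means under the same virus lay within that spread. Over both genotypes Il33 changed by -3.89 ± 0.70 on the log2 scale (SE; adjusted p = 0.00605), and the test passed whichever single library was left out. The change was -3.90 in KO and -3.10 in WT cells of batch A, and -3.90 in KO and -4.65 in WT cells of batch B. Batch A does not hold the 2 libraries that stood apart. Its summed keratinocyte markers were also lower with AdDlx3, at 6997 against 15663 RPKM in KO and 8617 against 17373 RPKM in WT cells. The part of these markers in the change of Il33 was not tested.

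Within 1 genotype the same size of change did not pass the test without a term for batch. Il33 changed by -3.90 ± 1.07 in KO cells (adjusted p = 0.0810) and by -3.88 ± 1.07 in WT cells (adjusted p = 0.0988). With the replicate number as a block, which here is the batch, the adjusted p-values were 0.00267 in KO cells and 0.00364 in WT cells. In that fit 3 of the 6 tested genes passed in KO cells (Il1a, Il1r2 and Il33) and 2 in WT cells (Il1a and Il33), all as lower. Beside them passed 24.6% of all genes in KO cells (5.67% as lower) and 22.0% in WT cells (5.41% as lower). Il1r2 entered the test only through the 2 KO AdGFP libraries, a side of the KO comparison, so its call there is not independent of the filter. In the authors' deposited table, Il33 had a signed fold change of -17.8 in KO cells (q = 0.204) and of -18.1 in WT cells (q = 0.198).

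Il1a encodes IL-1α, the ligand that activates Il1r1 without prior cutting. It lies on the minus strand at chr2:129299610-129309972, where Gm14023, annotated as a processed transcript, overlaps it on the opposite strand; the sources used here do not state whether counting used strand, so reads of the 2 cannot be told apart. Il1a had 1.99 and 1.18 RPKM in KO AdDlx3 cells, 2.05 and 1.06 RPKM in WT AdDlx3 cells, 5.44 and 5.65 RPKM in KO AdGFP cells, and 3.48 and 3.06 RPKM in WT AdGFP cells. All 4 AdDlx3 libraries were below all 4 AdGFP libraries, and the KO AdGFP libraries were the highest. Il33 and Il1a were the 2 of the 6 tested genes whose libraries did not overlap in this direction, which held for 6.27% of all genes tested. Il1a changed by -1.24 ± 0.23 over both genotypes (SE; adjusted p = 0.00665) and passed in every fit that left out 1 library.

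In KO cells Il1a changed by -1.56 ± 0.30 (adjusted p = 0.0389), and it was the only 1 of the 6 tested genes to pass there, beside 0.893% of all genes tested that passed as lower and 5.32% in either direction. That call held when either WT AdDlx3 library was left out and was lost when any other 1 was, with adjusted p-values between 0.0286 and 0.161. In WT cells Il1a changed by -0.91 ± 0.30 (adjusted p = 0.140, and 0.0318 with the replicate block). None of the 6 genes passed in WT cells, where 2.62% of all genes did in either direction and 0.356% as lower. At an unadjusted p under 0.05, limma counted 2 of the 6, Il1a and Il33, beside 2932 of all 12090 genes. The difference between the KO and WT changes of Il1a was -0.65 ± 0.43, which did not pass.

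Il1rn encodes the IL-1 receptor antagonist, which occupies Il1r1 without signalling. It had 12.7 and 2.83 RPKM in KO AdDlx3 cells, 21.7 and 2.77 RPKM in WT AdDlx3 cells, 21.2 and 4.72 RPKM in KO AdGFP cells, and 26.3 and 9.50 RPKM in WT AdGFP cells. The libraries of the 2 viruses overlapped, and the batch A library was the higher in all 4 groups. Il1rn was lower with AdDlx3 in all 4 pairs, as were Il33, Il1a and the untested Il18, a pattern held by 13.2% of all genes tested. The change of -0.81 ± 0.75 did not pass (adjusted p = 0.439), but with the replicate block it did (adjusted p = 0.00960). In that blocked fit, where 48.9% of genes passed in either direction, 10.9% as lower and 38.0% as higher, the level of Il1rn also differed between the batches, at -2.06 ± 0.19 in batch B minus batch A (SE; adjusted p = 0.00133; 24.4% of all genes passed that test).

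**Figure D2:**
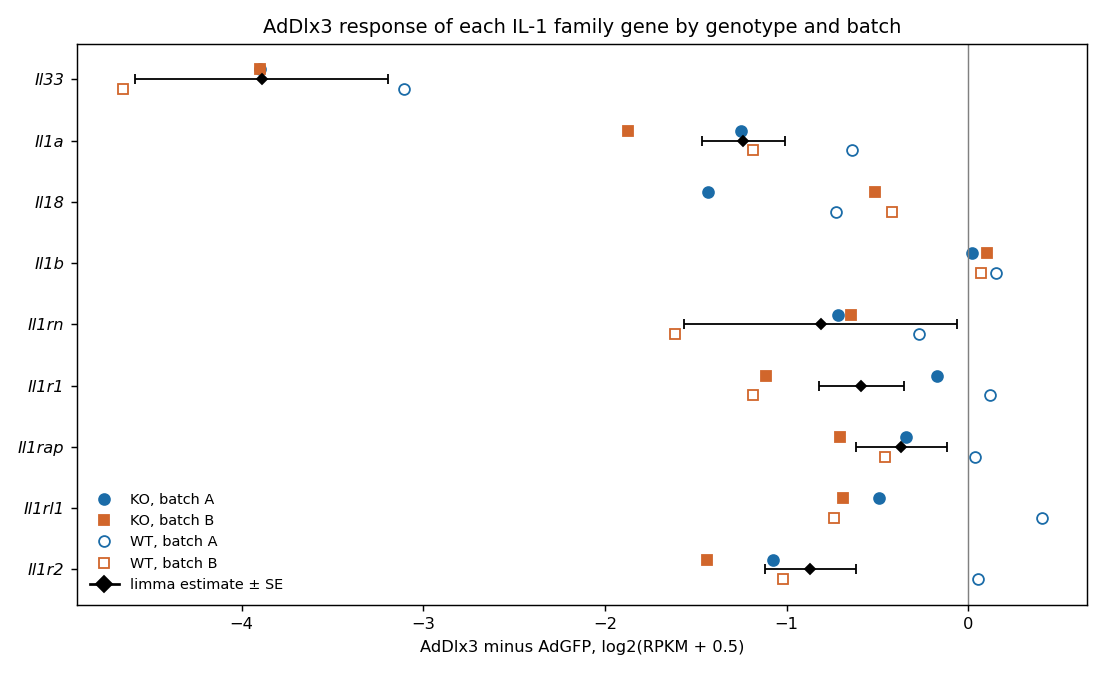
Difference between the AdDlx3 and the AdGFP library of the same genotype and batch, in log2(RPKM + 0.5), for each of the 9 genes; filled symbols are KO and open symbols WT cells, circles batch A and squares batch B, and diamonds with bars are the limma estimate over both genotypes ± SE for the 6 tested genes. All 4 Il33 pairs lie between -4.65 and -3.10 (the 2 KO symbols coincide), and the Il1r1 pairs of batch A lie near 0 while those of batch B are near -1.11 and -1.19.

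The level of Il33 beside that of the antagonist Il1rn was lower with AdDlx3 in every pair. The ratio of Il33 to Il1rn RPKM was 0.429 and 0.352 in KO AdDlx3 cells, 0.318 and 0.281 in WT AdDlx3 cells, 4.16 and 4.62 in KO AdGFP cells, and 2.40 and 3.33 in WT AdGFP cells. The 2 viruses did not overlap in this ratio, and both batches gave it at a similar size. Il33 made up between 16.4% and 26.6% of the summed RPKM of Il33, Il1rn, Il1a, Il18 and Il1b in AdDlx3 libraries, against between 67.1% and 75.7% in AdGFP libraries. For Il1rn the shares were between 54.9% and 69.7% in AdDlx3 libraries and between 14.5% and 28.1% in AdGFP libraries. The sum itself was between 4.72 and 31.1 RPKM with AdDlx3 and between 32.5 and 117 RPKM with AdGFP. The ratio of Il1rn to Il1a overlapped, at between 2.40 and 10.6 with AdDlx3 and between 0.835 and 7.56 with AdGFP. These ratios are a description of the libraries and were not tested.

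**Figure D3:**
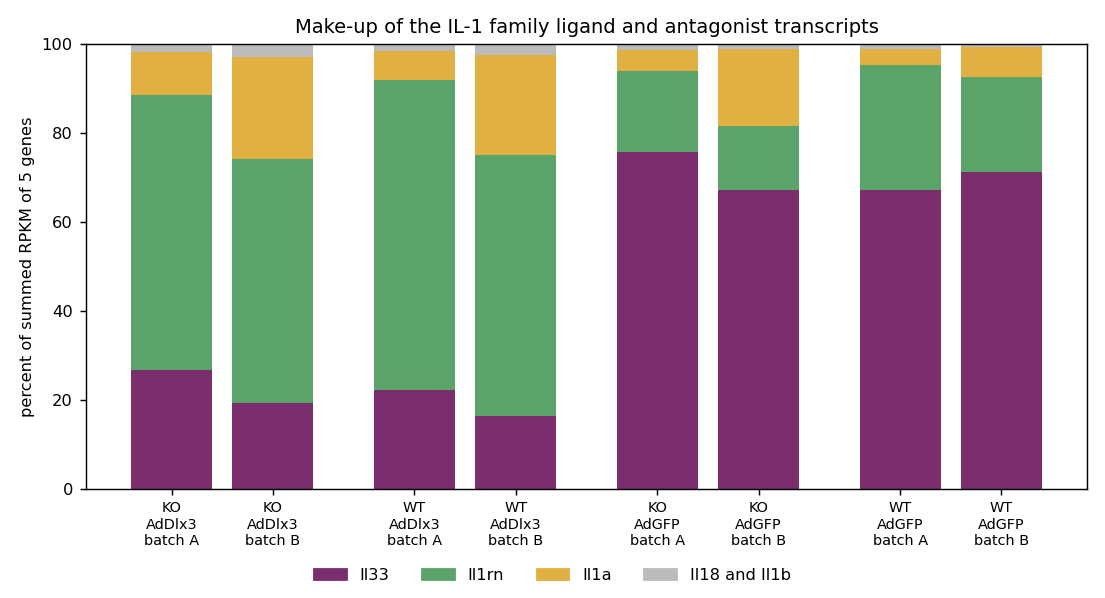
Share of Il33 (purple), Il1rn (green), Il1a (yellow) and Il18 with Il1b (grey) in the summed RPKM of these 5 genes, 1 bar a library. Il33 takes between 16.4% and 26.6% in AdDlx3 bars and between 67.1% and 75.7% in AdGFP bars.

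Il18 and Il1b, the 2 precursors that need cutting, were too low to test. Il18 had 0.294 and 0.0183 RPKM in KO AdDlx3 cells, 0.366 and 0.0680 RPKM in WT AdDlx3 cells, 1.64 and 0.241 RPKM in KO AdGFP cells, and 0.937 and 0.259 RPKM in WT AdGFP cells. Each AdDlx3 library was below its AdGFP partner, although the 2 viruses overlapped. Bco2 and Tex12 overlap Il18 on the opposite strand. Il1b was at most 0.132 RPKM with AdDlx3 and at most 0.0900 RPKM with AdGFP, and it was not lower in any of the 4 pairs. Its antisense gene Il1bos shares the locus. With no filter on low values, the adjusted p was 0.240 for Il18 and 0.321 for Il1b.

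Among the receptors of the 9 genes, Il1r1 was the most abundant, and its change with AdDlx3 depended on the batch. It had 10.05 and 8.70 RPKM in KO AdDlx3 cells, 11.2 and 7.48 RPKM in WT AdDlx3 cells, 11.4 and 19.4 RPKM in KO AdGFP cells, and 10.3 and 17.7 RPKM in WT AdGFP cells. In batch A the AdDlx3 library differed from its AdGFP partner by -0.17 on the log2 scale in KO and 0.12 in WT cells, and in batch B by -1.11 in KO and -1.19 in WT cells. The response of batch B minus that of batch A was -1.12 ± 0.18 (SE; adjusted p = 0.00539), in a limma model added after the data were seen. Of the 6 genes 1, Il1r1, passed this test, a share near the 14.0% of all genes that did. For the other tested genes this difference was also below 0, between -0.78 (Il33) and -0.43 (Il1rap), and did not pass. Over both batches Il1r1 changed by -0.59 ± 0.23 (adjusted p = 0.0910), and it passed, at -0.87, after scaling (adjusted p = 0.0319). The unclassified transcript Gm38070 overlaps Il1r1 on the same strand.

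Il1rap, the subunit shared by the IL-1, IL-33 and IL-36 receptors, had 4.09 and 2.39 RPKM in KO AdDlx3 cells, 4.58 and 2.21 RPKM in WT AdDlx3 cells, 5.33 and 4.22 RPKM in KO AdGFP cells, and 4.47 and 3.22 RPKM in WT AdGFP cells. The viruses overlapped, and the change of -0.37 ± 0.25 did not pass (adjusted p = 0.289, and 0.0503 with the replicate block). Il1rl1, the IL-33 receptor, was too low to test. It ranged between 0.195 and 0.758 RPKM with AdDlx3 and between 0.452 and 0.829 RPKM with AdGFP. In the AdGFP libraries its highest level was therefore far below the lowest of its ligand Il33, 21.8 RPKM. The antisense gene Gm20319 overlaps Il1rap.

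The decoy receptor Il1r2 binds IL-1 without signalling. It had 0.366 and 0.177 RPKM in KO AdDlx3 cells, 0.442 and 0.0935 RPKM in WT AdDlx3 cells, 1.33 and 1.33 RPKM in KO AdGFP cells, and 0.407 and 0.704 RPKM in WT AdGFP cells. It passed the filter through the 2 KO AdGFP libraries alone, so the group in which it was high also brought it into the test. The WT AdGFP library of batch A lay within the AdDlx3 range. Over both genotypes Il1r2 changed by -0.87 ± 0.25 (adjusted p = 0.0342), and the call held when the batch A library of WT AdDlx3 or of WT AdGFP was left out. It was lost when any other 1 was left out, with adjusted p-values between 0.0110 and 0.0920 over the 8 fits, and also with no filter on low values (adjusted p = 0.0517). In KO cells the change was -1.26 ± 0.33 (adjusted p = 0.0732, and 0.0237 with the replicate block). The antisense gene Gm16894 and Gm37347 on the same strand overlap it.

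KO and WT cells were also compared under each virus. With AdGFP, Dlx3 was low in both genotypes, at 0.656 and 0.558 RPKM in KO and 1.71 and 1.77 RPKM in WT cells. With AdDlx3 it was at least 237 RPKM in both. Because WT cells held so little Dlx3 to lose, these comparisons cannot decide what loss of Dlx3 does to the family. Under AdGFP, Il1a differed by 0.68 ± 0.30, Il1r2 by 0.81 ± 0.33 and Il33 by -0.02 ± 1.07 (KO minus WT, SE), and each adjusted p was 1. Il1a, Il1r2, Il1r1 and Il1rap were higher in KO than in WT cells in both batches, as were 30.0% of all genes tested. None of the 6 tested genes, and 0.00% of all 12090, passed under AdGFP, under AdDlx3, over both viruses or in the interaction of genotype and virus. At an unadjusted p under 0.05, limma counted 121 of 12090 genes under AdGFP, Il1r2 among them, and 45 under AdDlx3, 194 over both viruses and 40 in the interaction, with no member among those. Under AdDlx3 the difference was 0.03 ± 0.30 for Il1a, -0.04 ± 1.07 for Il33 and -0.36 ± 1.15 for Il1rn. Il1rn had 12.7 and 2.83 RPKM in KO and 21.7 and 2.77 RPKM in WT cells given AdDlx3. The untested Il1rl1 had 0.195 and 0.276 RPKM in KO and 0.758 and 0.297 RPKM in WT cells given AdDlx3, so its gap was seen in batch A alone. The interaction was -0.02 ± 1.51 for Il33 and -0.77 ± 0.46 for Il1r2, so the errors leave room for sizeable differences.

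Pearson correlations of log2(RPKM + 0.5) over the 8 libraries, which share batch and virus, were above 0 for all 15 pairs of the 6 tested genes. They were highest between Il1a and Il1r2 (r = 0.950), between Il1a and Il33 (r = 0.906) and between Il1rn and Il1rap (r = 0.851), and lowest between Il1rn and Il1r1 (r = 0.131). Il33 and Il1rn had r = 0.722, and Il1rap had r = 0.795 with Il33 and r = 0.780 with Il1a. Among all genes tested, the 3 most like Il33 were Slc2a1, a glucose transporter (r = 0.999), Mpzl2, an adhesion protein of epithelia (r = 0.998), and Zfp750, a transcription factor of epidermal differentiation (r = 0.996). Slc2a1 ranged between 49.2 and 131 RPKM with AdDlx3 and between 255 and 506 RPKM with AdGFP. Those most like Il1a were P3h2, a collagen prolyl hydroxylase (r = 0.991), Msmo1, an enzyme of cholesterol synthesis (r = 0.990), and Prn (r = 0.982), whose locus overlaps Prnp and Prnd. The 3 most like Il1rn were 2310022B05Rik (r = 0.995), the pseudogene Gpr137b-ps (r = 0.991) and Stfa3, a stefin protease inhibitor with near-identical copies between which reads may be split (r = 0.991).

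Other genes of the pathway were counted from lists in the same fit over both genotypes, whose median over all genes tested was 0.22. The shares of all genes beside which the counts stand were 23.4% higher and 5.74% lower. With the replicate block they were 38.0% higher and 10.9% lower, and after scaling 9.67% higher and 12.1% lower. Of 5 other ligands, 4 were tested, 1 rose and 0 fell, with a list median of 0.10. The riser was Il1f6, which encodes IL-36α, at 1.73 ± 0.54 (adjusted p = 0.0450); its call held in 2 of the 8 fits that left out 1 library, and after scaling its adjusted p was 0.0813. Its mean change was 2.34 (batch A) and 1.12 (batch B), which differed (adjusted p = 0.0235). Of 7 other receptors and decoys, 4 were tested, 1 rose and 1 fell, with a median of 0.17. With the replicate block 2 rose and 2 fell. Il18bp, which rose only with the block, entered the test only through 2 AdDlx3 libraries and was at most 0.907 RPKM with AdGFP. The one that rose without the block was Sigirr, a membrane inhibitor of IL-1 receptor signalling. Sigirr had 7.18 and 8.05 RPKM in KO AdDlx3 cells, 5.16 and 7.27 RPKM in WT AdDlx3 cells, 0.782 and 0.671 RPKM in KO AdGFP cells, and 0.948 and 1.18 RPKM in WT AdGFP cells. It reached 1 RPKM in 4 AdDlx3 libraries and 1 AdGFP library. The viruses did not overlap, the mean change was 2.27 (batch A) and 2.54 (batch B), and the change of 2.41 ± 0.18 passed in every fit that left out 1 library (adjusted p = 0.000299; 2.17 after scaling). Il18r1, the IL-18 receptor chain, changed by -1.04 ± 0.31 (adjusted p = 0.0399), a call that held in 1 of the 8 fits that left out 1 library; its mean change was -0.37 (batch A) and -1.71 (batch B), which differed (adjusted p = 0.0153).

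**Figure D4:**
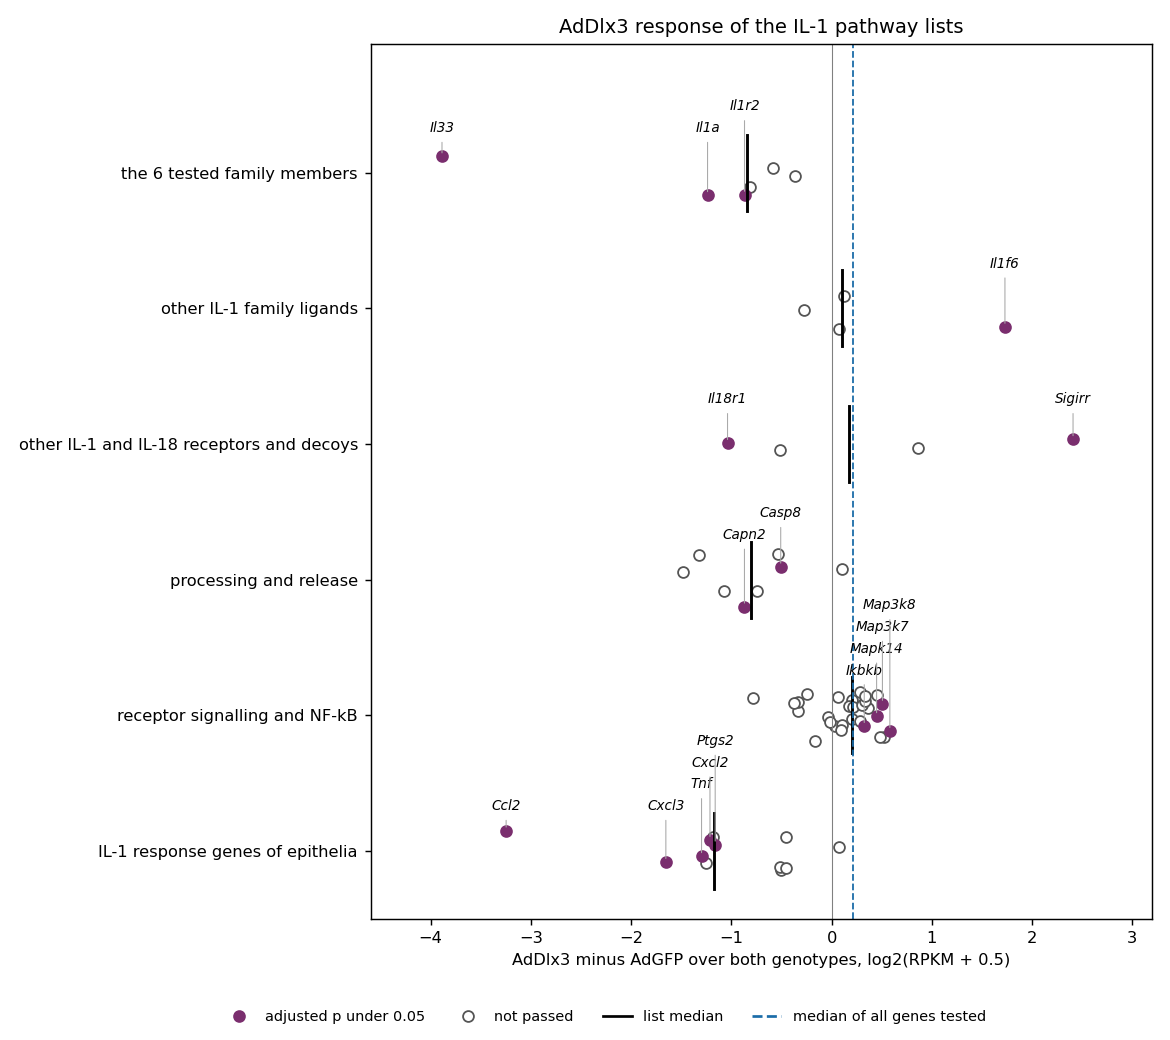
AdDlx3 minus AdGFP over both genotypes, in log2(RPKM + 0.5), of each tested gene of the family and of 5 pathway lists; filled points passed at an adjusted p under 0.05 and are named, open points did not pass, black bars are list medians and the dashed line is the median of all genes tested, 0.22. Vertical scatter within a list has no meaning. Il33 and Ccl2 lie farthest to the left and Sigirr farthest to the right.

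Of 19 genes that cut or release the cytokines, 8 were tested, 0 rose and 2 fell, with a median of -0.81; with the replicate block 7 fell. Capn2, a calpain protease subunit (calpains cut the IL-1α precursor), changed by -0.87 ± 0.12 (adjusted p = 0.00271), and Casp8, a protease of cell death that can cut IL-1β, by -0.51 ± 0.16 (adjusted p = 0.0417), a call that held in 2 of the 8 fits that left out 1 library. The mean change of Capn2 was -0.65 (batch A) and -1.09 (batch B), and that of Casp8 was -0.66 (batch A) and -0.36 (batch B). Of 29 genes of receptor signalling and NF-kB, all 29 were tested, 4 rose and 0 fell, with a median of 0.20, close to that of all genes; with the replicate block 10 rose and 2 fell. The 4 of 29 were a smaller share than the 23.4% of all genes that rose. The 4 were the kinases Mapk14 (0.45 ± 0.10, adjusted p = 0.0132), Map3k8 (0.58 ± 0.14, adjusted p = 0.0187), Map3k7 (0.51 ± 0.15, adjusted p = 0.0342) and Ikbkb (0.32 ± 0.10, adjusted p = 0.0487). Of the 8 fits that left out 1 library, Mapk14 passed in 8, Map3k8 in 6, Map3k7 in 2 and Ikbkb in 0. Their mean changes lay between 0.27 (Map3k7) and 0.44 (Ikbkb) in batch A and between 0.21 (Ikbkb) and 0.76 (Map3k8) in batch B. After scaling, which moved the median of all genes to -0.06, 0 of the 29 rose and 4 fell, and none of those kinases passed.

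Of 16 genes that IL-1 is known to induce in epithelia, 12 were tested, 0 rose and 5 fell, with a median of -1.17; 7 fell with the replicate block and 6 after scaling. Ccl2, a chemokine for monocytes, had 1.61 and 0.428 RPKM in KO AdDlx3 cells, 2.93 and 0.485 RPKM in WT AdDlx3 cells, 6.94 and 18.3 RPKM in KO AdGFP cells, and 10.6 and 34.1 RPKM in WT AdGFP cells. The viruses did not overlap, and Ccl2 changed by -3.25 ± 0.55 (adjusted p = 0.00481), at -1.76 (batch A) and -4.74 (batch B), which differed (adjusted p = 0.000404). Ptgs2, the inducible enzyme of prostaglandin synthesis, changed by -1.16 ± 0.21 (adjusted p = 0.00671), the neutrophil chemokine gene Cxcl2 by -1.21 ± 0.30 (adjusted p = 0.0201) and Tnf, the inflammatory cytokine gene, by -1.30 ± 0.32 (adjusted p = 0.0208). The fifth was Cxcl3, at -1.65 ± 0.53 (adjusted p = 0.0483), named here after its value was seen. Cxcl3 entered the test only through the 2 AdGFP libraries of batch B, where it was highest, and was at most 0.481 RPKM with AdDlx3, so its call is not independent of the filter. In batch A and then batch B, the responses of Cxcl3 (-0.50 and -2.81, adjusted p = 0.000884) and Tnf (-0.68 and -1.92, adjusted p = 0.0143) also differed between batches. Those of Ptgs2 (-0.88 and -1.44) and Cxcl2 (-0.74 and -1.69) did not pass that test. Ccl2 and Ptgs2 passed whichever library was left out, whereas Cxcl2 passed in 6 of the 8 such fits, Tnf in 5 and Cxcl3 in 2.

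Marker lists of the cells an epidermal culture can hold moved beside these genes as follows. Of the 10 keratinocyte markers, 1 rose (Itga6, 0.55 ± 0.14, adjusted p = 0.0226) and 1 fell (Itgb4, -0.87 ± 0.22, adjusted p = 0.0218); both are integrin subunits of basal cells. The change of Itga6 was 0.44 (batch A) and 0.65 (batch B), and that of Itgb4 was -0.33 (batch A) and -1.40 (batch B), which differed (adjusted p = 0.00601). With the replicate block 2 of the 10 rose and 7 fell, beside 38.0% and 10.9% of all genes. Of 8 fibroblast markers, 5 were tested, Col1a2 rose (1.31 ± 0.39, adjusted p = 0.0398) and Col6a3 fell (-0.91 ± 0.26, adjusted p = 0.0354), and the summed RPKM was between 10.8 and 42.0 with AdDlx3 and between 9.44 and 26.5 with AdGFP. The change of Col1a2 was above 0 in both batches and 1.12 in batch B, the smaller, and Col6a3, at -0.94 (batch A) and -0.88 (batch B), reached 1 RPKM in 4 AdGFP libraries and 1 AdDlx3 library. With the replicate block 2 of the 5 rose and 3 fell. Of 6 endothelial markers, 3 were tested, Egfl7 rose (0.84 ± 0.26, adjusted p = 0.0455) and Kdr fell (-1.05 ± 0.25, adjusted p = 0.0171), and Cdh5 was under 0.1 RPKM in every library. Both responses differed between batches: Egfl7 changed by 1.40 in A and 0.28 in B (adjusted p = 0.0266), and Kdr by -0.58 in A and -1.52 in B (adjusted p = 0.0276). Kdr entered the test only through 3 AdGFP libraries and was at most 0.593 RPKM with AdDlx3. Of 9 macrophage and other myeloid markers, 4 were tested and Cd74 rose (0.81 ± 0.25, adjusted p = 0.0413), with sums between 17.0 and 23.8 RPKM with AdDlx3 and between 14.1 and 26.8 RPKM with AdGFP. Cd74 entered the test only through 3 AdDlx3 libraries, and its change was 0.53 (batch A) and 1.09 (batch B). Cd68, at between 12.7 and 25.0 RPKM, made up most of these sums, and Lyz2 and Cd14 reached at most 1.25 and 1.42 RPKM. Ptprc, Adgre1 and Fcgr1 of the same list were under 0.1 RPKM in every library. Of 7 mast cell markers the 6 other than Kit were under 0.1 RPKM in every library, and Kit did not pass. Of 6 Langerhans and T cell markers in the table, Cd207, Itgax, Cd3e and Cd3g were under 0.1 RPKM in every library, and the 2 tested did not pass. Of the 8 fits that left out 1 library, Kdr passed in 7. Itga6 and Itgb4 passed in 4 each, Col1a2 and Col6a3 in 3 each, and Egfl7 and Cd74 in 1 each. After scaling, 0 genes of these marker lists rose, whereas 4 keratinocyte, 2 fibroblast and 1 endothelial marker fell. Beside this, 9.67% of all genes rose and 12.1% fell after scaling. The summed keratinocyte markers, most of which is Krt5 and Krt14, were lower in every AdDlx3 library than in every AdGFP library. Krt5 (-2.97 ± 0.98, adjusted p = 0.0537) and Krt14 (-2.62 ± 0.85, adjusted p = 0.0523) did not pass over both genotypes, but did with the replicate block. Both were lower in all 4 pairs, as were Trp63, Itgb4, Col17a1, Krt1 and Dsg3. Krt15 was lower in 3 of the 4 pairs, and Itga6 and Krt10 in 0. The part of these markers in the fall of Il33 and Il1a was not tested.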

How the data were processed

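RNA was sequenced in 8 libraries, and groups and replicate numbers come from the sample labels. The tools listed, without their order, are TopHat2 2.1.1, Partek and bcl2fastq 2.20.0.422, with build mm10, per the submitters' processing notes. The sources used here do not give annotation, counting or strand. The authors' deposited main table holds RPKM for 26202 genes. A second deposited table holds log2 group means of the authors, with p-values, q-values, the ratio of each contrast and a signed fold change score, per the file headers. Library depth is the count of alignments in the deposited sample sheet, and depth per gene is unknown.

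Tests used log2(RPKM + 0.5). A gene entered them if 2 or more libraries reached 1 RPKM, which 12090 did. Every p-value of a gene is from limma 3.58.1 (R 4.3.3) with an intensity trend: an additive model of genotype and virus gave effects over both levels of the other factor, and a model of the 4 groups gave the rest. Adjustment was by Benjamini-Hochberg over all genes tested. The script was tested on simulated data. Alternatives were other pseudocounts (0.1 and 1), no filter, a filter in all libraries, median-of-ratios scaling, no trend, the replicate block and leaving out each library; scaling with the block and the batch model were added after the data were seen. The sample sheet puts all replicates 1 in batch A and all replicates 2 in batch B, so the numbers pair the libraries; deviations from group means correlated across genes at between 0.351 and 0.876 in the 6 pairs of groups.

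The members and lists were chosen with earlier results of these data known. The text names Dlx3, all 9 members, of each list the up to 4 genes with the smallest adjusted p, given where they passed, and the 3 genes most like Il1a, Il1rn and Il33. Gene positions and overlaps are from GENCODE M21 (GRCm38), and promoters from RefSeq (GRCm38.p6).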

Additional observations from a re-analysis of the deposited data

Results flagged for a closer look

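The AdDlx3 response of Il1r1, the signalling receptor for IL-1α and IL-1β, differed between the 2 batches by a test of the difference itself: batch B minus batch A was -1.12 on the log2 scale (limma adjusted p = 0.00539). The response was -1.11 in KO and -1.19 in WT cells of batch B, against -0.17 in KO and 0.12 in WT cells of batch A. Of the 6 members tested 1 passed, a share near the 14.0% of all genes that did. For the other tested members batch B minus batch A was also below 0, between -0.78 (Il33) and -0.43 (Il1rap), and did not pass.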

How the results depend on the processing

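Over both genotypes 3 members passed. The number was 1 (Il1a) when at least 1 RPKM was asked for in all 8 libraries, which left Il33 and Il1r2 untested, 6 with scaling and the replicate block together, 4 with the replicate block alone (Il1rn added) or with scaling alone (Il1r1 added), and between 2 and 3 when 1 library was left out. In WT cells, where 0 passed, 2 did with the replicate block and 3 with scaling and the block. In KO cells, where 1 passed, 0 did with no filter, 3 with the block, 4 with scaling and the block, and between 0 and 1 when 1 library was left out. Those 3 and those 4 include Il1r2, which only the KO AdGFP libraries brought past the filter. Among all genes, 5908 passed over both genotypes with the block alone, against 3525 in the main fit. With scaling and the block together, the count of all genes lay between these values. In WT cells it likewise lay between 317 in the main fit and 2657 with the block alone, and in KO cells between 643 and 2976. The higher member counts with scaling and the block thus stand beside more calls among all genes than in the main fit. No member passed in a comparison of KO with WT cells or in the interaction under any setting.

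Il33, Il1a and Il1r2 kept their direction over both genotypes in every setting in which they were tested. Values that changed sign were small or had large errors, and the cause was not tested. The interaction for Il33 was 0.020 with a pseudocount of 0.1. Leaving out 1 library gave ranges that crossed 0 for KO against WT under AdDlx3 of all 6 tested members (Il33 -1.31 to 1.23, Il1rn -1.74 to 1.02), for KO against WT over both viruses of Il33, Il1rn, Il1r1 and Il1rap, for the interaction of Il33 (-1.28 to 1.25), Il1rn (-1.12 to 1.64), Il1r1 (-0.49 to 0.27) and Il1rap (-0.77 to 0.14), for KO against WT under AdGFP of Il33 (-1.02 to 0.98), Il1rn (-1.65 to 0.41) and Il1r1 (-0.24 to 0.51), for AdDlx3 in KO cells of Il1rn (-1.71 to 0.35), and for AdDlx3 in WT cells of Il1rn (-2.32 to 0.44) and Il1rap (-0.67 to 0.24). Il1b, Il18 and Il1rl1 were below the filter on low values, and with no filter they did not pass over both genotypes (adjusted p = 0.321, 0.240 and 0.255).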
